A study of Mus musculus with 8 samples.

Results

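The claudin, tight junction and connexin genes describe how cells are sealed to each other and how they are coupled. Their RNA was compared between Merkel cells, the touch receptors of the epidermis, and the epidermal cells around them. The members were taken by symbol alone: the claudins, Ocln, Marveld2, Marveld3, the Tjp genes, Cgn, the junctional adhesion genes F11r, Jam2 and Jam3, the alpha, beta and gamma connexins and the pannexins. This gave 52 genes of 24538 in the count files.

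In this study 4 sorted groups with 2 libraries each were measured, 8 in all, from skin of mice at postnatal day 0. Merkel cells and IFE cells were sorted from the paw, and again from the back, where IFE is the submitters' own abbreviation, left unexpanded in the labels. Every mouse had the genotype Atoh1-GFP, and the reporter marked the Merkel cells. The Merkel gate was positive for GFP and EpCAM and negative for Sca1, and the IFE gate was negative for GFP and positive for EpCAM and Sca1. Whether the paired libraries of a group stem from different animals or from pools is not in the labels, and the p-values therefore refer to library-to-library spread, which may be technical. A small amount of RNA was amplified before sequencing, and counting error alone is covered by any interval or floor given.

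Tight junctions close the space between epithelial cells. Claudins cross the membrane and form the strands, occludin and the MARVEL proteins join them, and the scaffolds encoded by the Tjp genes and Cgn tie the strands to the actin cytoskeleton. Connexins form channels that pass ions and small molecules directly between neighbouring cells. In the epidermis tight junctions lie in the outer living layers, where Cldn1 is needed for the water barrier of the newborn mouse, and keratinocytes are coupled by several connexins.

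Library totals ran between 11139306 and 26195076 counts. The 10 Merkel cell markers were all higher in Merkel cells at both sites, and summed to 4093 to 5549 CPM (counts scaled to library size, with TMM factors) in paw Merkel, 19.8 to 24.6 in paw IFE, 6304 to 6395 in back Merkel and 14.2 to 15.7 CPM in back IFE libraries. Atoh1 is among these markers, and since its reporter defined the Merkel gate its own difference is not a finding. The 8 basal keratinocyte markers summed to 1876 to 3512 CPM in paw Merkel, 24195 to 27734 in paw IFE, 1229 to 1631 in back Merkel and 29886 to 41139 CPM in back IFE libraries. Paw Merkel library 1 held more keratinocyte RNA than library 2: the 14 suprabasal markers summed to 6159 and 533 CPM there, against 7175 and 12701 CPM in paw IFE libraries 1 and 2. They summed to 2347 and 1615 CPM in back Merkel libraries 1 and 2 and to 9110 and 5633 CPM in back IFE libraries 1 and 2. The back IFE libraries were also unlike each other, with 1092 and 165 CPM over 10 immune and Langerhans cell markers in libraries 1 and 2. The part of these differences in the results was not tested. Where the call of a member described below was lost without a single library, the value without that library is given. No such value is given for genes outside the member set.

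Of the 52 members, 30 had enough counts to be tested, 13 had some counts but too few, and 9 had 0 counts in all 8 libraries. Among the 9 were Cldn5, Cldn11, Cldn13, Cldn14, Cldn16, Cldn17, Gjb1 and Panx2. Cldn5 is the claudin of blood vessel endothelium and Gjb1 a connexin of Schwann cells and liver. Among the 13, none of which had more than 85 counts in a library, were Cldn2, Cldn9, Cldn10, Cldn18, Cldn20, Cldn22, Cldn23, Cldn24, Gja4, Gja5, Gja10 and Panx3. Because the filter keeps a gene that is high in only one group, counts over the 30 tested members describe those genes and not the whole set.

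In the paw 1 of the 30 tested members was higher and 1 lower in Merkel cells, where 4.28% of all 15151 genes tested were called higher and 1.93% lower, 6.21% in all (edgeR quasi-likelihood test, adjusted p under 0.05). In back skin 2 were higher and 5 lower, with 7.99% of all genes called higher and 7.45% lower, 15.4% in all. The median log2 fold change of the tested members was 0.01 in the paw and -0.60 in back skin, beside -0.04 and -0.06 over all genes. Cldn6 and Marveld2 were the higher ones, and the lower ones included Cldn1, Gja1, Gjb2 and Gjb6. Cldn6 and Gja1 were called at both sites and the rest in back skin alone. The difference between the sites was tested for these 30 members and passed for 0 of them in the main edgeR fit. No tested member is therefore shown by that fit to behave differently at the 2 sites, although DESeq2 called Cldn6 (adjusted p = 0.0166). With no filter on low counts, edgeR called Cldn6 and Gjb2 as well (edgeR adjusted p = 0.00188 and 0.0135). The untested members had too few counts for this contrast.

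**Figure D1:**
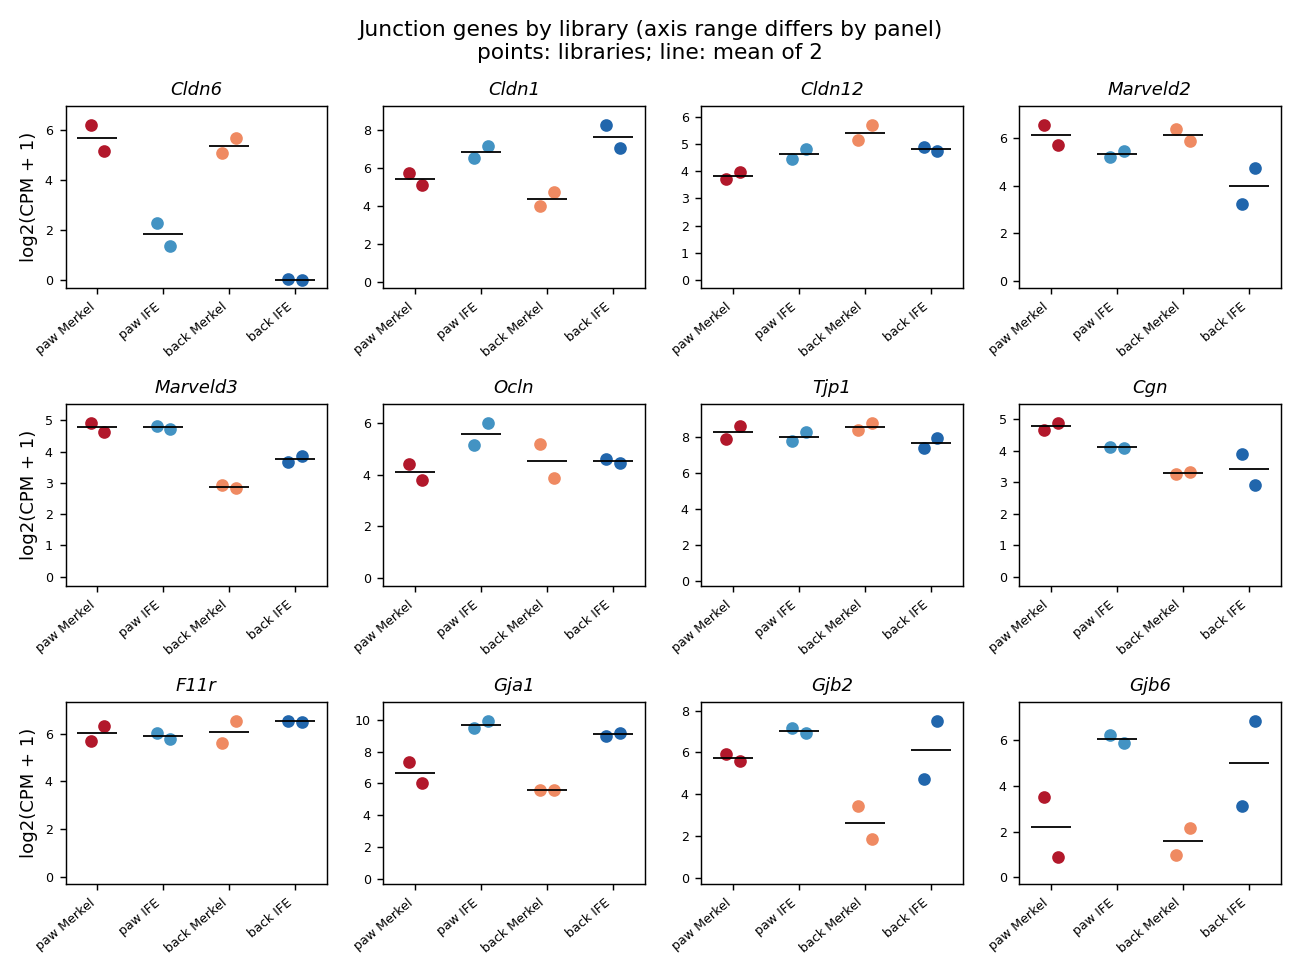
Level of 12 junction genes in each library, as log2(CPM + 1), with the groups along the horizontal axis. Points are libraries and lines the mean of 2. Cldn6 is high in all Merkel libraries, Gja1 is high in all IFE libraries, and the back IFE libraries are far apart for Gjb2 and Gjb6.

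Cldn6, a claudin best known from embryonic epithelia, was the member most sharply divided between the cell types. It lies on chromosome 17 from 23679249 to 23682446 (GRCm38, plus strand). It measured 72.6 and 35.0 CPM in paw Merkel libraries 1 and 2, 4.0 and 1.6 CPM in paw IFE, 32.5 and 49.7 CPM in back Merkel, and 0.0543 and 0 CPM in back IFE libraries. All Merkel libraries were thus above all IFE libraries, with no overlap at either site. The log2 fold change was 4.28 in the paw (SE 0.85, edgeR adjusted p = 0.0121). That call was lost without paw IFE library 2 (log2 fold change 3.77, edgeR adjusted p = 0.0882, the highest of 18 alternatives, the lowest being 1.81e-07).

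In back skin 936 counts of Cldn6 in Merkel cells stood against 1 count in IFE cells, a ratio of 1787 with a 95% exact binomial interval of 320 to 70638 for counting error alone. The fitted log2 fold change was 10.41 (SE 1.22, edgeR adjusted p = 0.000254), and it passed the threshold in all 18 alternatives. In every Merkel over IFE result, the 18 include the mean of the paw and back differences. That mean is a separate contrast, chosen after the data were seen, and contains the result itself. The paw IFE cells held more Cldn6 than the back IFE cells, 129 counts against 1 count over the libraries of each group. That difference had a log2 fold change of 6.53 and did not pass (edgeR adjusted p = 0.59), although DESeq2 called it (adjusted p = 0.00464, range over 17 alternatives 1.16e-05 to 1). The contrast between the sites, paw minus back, was -6.14 on the log2 scale (SE 1.36, edgeR adjusted p = 0.245). DESeq2 called this contrast too (adjusted p = 0.0166, range over 16 alternatives 0.00188 to 0.568).

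Cldn1, the main claudin of epidermis (chromosome 16, 26356642 to 26371841, minus strand), ran the other way. It measured 52.0 and 33.8 CPM in paw Merkel, 90.3 and 138 CPM in paw IFE, 15.3 and 25.2 CPM in back Merkel, and 302 and 131 CPM in back IFE libraries 1 and 2. IFE libraries were higher at both sites with no overlap. It fell in back Merkel cells (log2 fold change -3.42, SE 0.53, edgeR adjusted p = 0.00149), a call kept in all 18 alternatives. In the paw the log2 fold change was -1.41 (SE 0.49, edgeR adjusted p = 0.126) and did not pass.

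A comparison within each library does not depend on how libraries were scaled, and for this the authors' deposited FPKM values (fragments scaled to transcript length and library size) were used, since they allow genes of different length to be set side by side. Cldn6 was 4.87 and 3.95 times the FPKM of Cldn1 in paw Merkel libraries, but 0.141 and 0.0406 times in paw IFE libraries. The ratio was 7.59 and 6.73 in back Merkel libraries and 0.000718 in back IFE library 1, while Cldn6 was listed at 0 FPKM in back IFE library 2. Cldn6 was therefore the higher of the pair in 4 of 4 Merkel libraries and the lower in 4 of 4 IFE libraries.

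The summed FPKM of all claudins was 87.3 ± 18.4 in paw Merkel and 47.3 ± 12.2 in paw IFE cells, and 85.6 ± 17.1 in back Merkel and 62.0 ± 27.2 in IFE cells of the back (mean ± SD, n = 2 in each group, as for every ± given). In back skin these sums overlapped, since back IFE library 1 had 81.2 and back Merkel library 1 had 73.5. The make-up of the sum was unlike between the cell types. Cldn6 made up 63.5 ± 7.41% of it in paw Merkel and 6.23 ± 4.76% in paw IFE cells, and 55.9 ± 8.16% in back Merkel and 0.0322 ± 0.0455% in IFE cells of the back. Cldn1 made up 14.4 ± 0.459% in paw Merkel and 69.2 ± 1.70% in paw IFE cells, and 7.88 ± 1.80% in back Merkel and 82.9 ± 9.55% in IFE cells of the back.

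**Figure D2:**
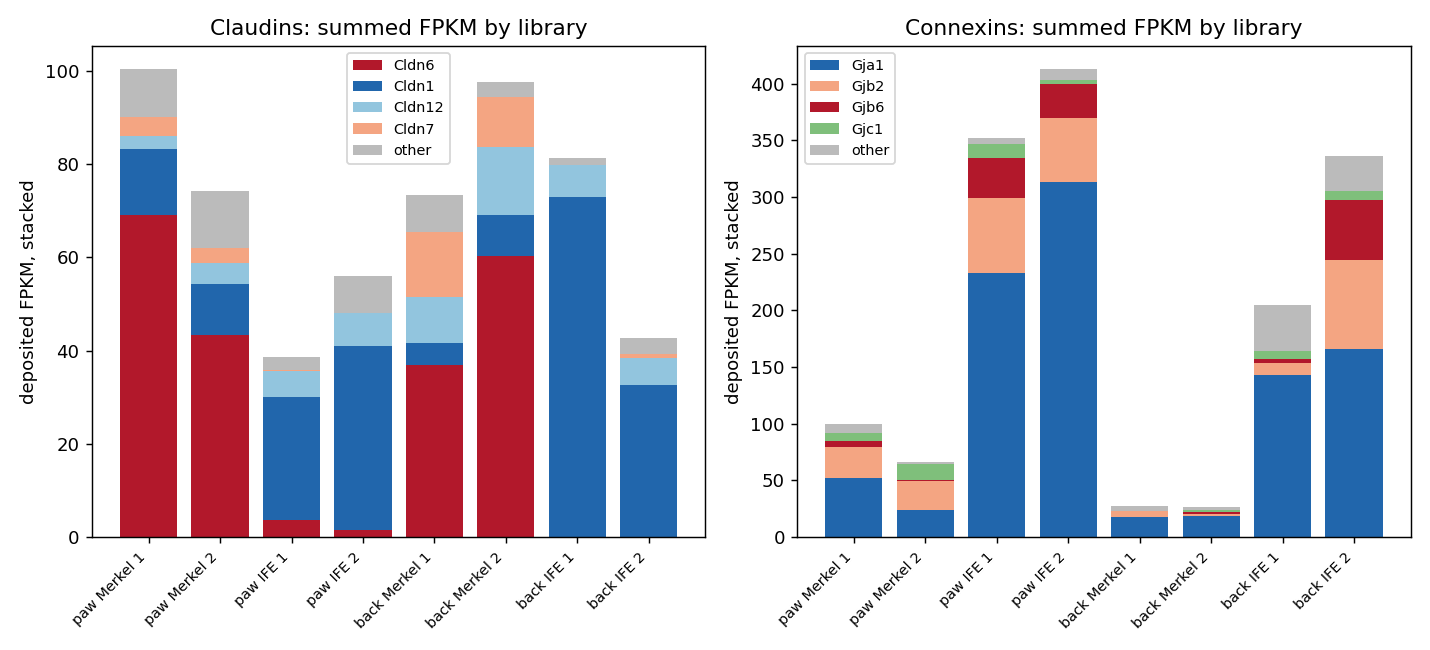
Deposited FPKM of the claudins (left) and connexins (right), stacked by gene for each of the 8 libraries. Cldn6 fills most of the claudin bar in Merkel libraries and Cldn1 in IFE libraries, and the connexin bars of the Merkel libraries, 26.4 to 99.4 FPKM, are all shorter than those of the IFE libraries, 205 to 413 FPKM.

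Cldn12, a broadly expressed claudin, passed in no comparison. Its levels were 11.98 and 14.8 CPM in paw Merkel, 20.8 and 27.6 CPM in paw IFE, 34.2 and 51.3 CPM in back Merkel, and 29.1 and 25.7 CPM in back IFE libraries. Both paw Merkel libraries lay below both paw IFE libraries and both back Merkel libraries above both back IFE libraries, and the contrast between the sites was -1.49 on the log2 scale (SE 0.81, edgeR adjusted p = 0.636). Cldn7, which binds EpCAM in other epithelia, is named here after its values were seen. It had 75 and 16 counts in paw Merkel, 47 and 1 in paw IFE, 132 and 51 in back Merkel, and 0 and 12 counts in back IFE libraries. The back skin groups did not overlap, yet its log2 fold change of 4.96 did not pass (SE 2.24, edgeR adjusted p = 0.16). The other 5 tested claudins, Cldn3, Cldn4, Cldn8, Cldn15 and Cldn19, had group means from 0 to 9.02 CPM and passed in none of the 5 comparisons. Cldn8 had 0 counts in Merkel cells of the back and 65 in IFE cells there, at least 11.4-fold lower in Merkel cells if the Merkel group is set at a floor of 3 counts (edgeR adjusted p = 0.128). Cldn3 had 41 counts in Merkel cells of the back and 0 in IFE cells there, at least 26.1-fold higher in Merkel cells with the IFE group at the same floor (edgeR adjusted p = 0.154).

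Some claudin genes are close neighbours. Cldn9 lies 137 bases beyond Cldn6 on the opposite strand. It had 46 counts in paw Merkel library 1 and 0 counts in the other 7 libraries. Cldn3 and Cldn4, which are 39279 bases apart on chromosome 5, were both under 5 CPM in every library.

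Marveld2 encodes tricellulin, which seals the corners where several cells meet and is a deafness gene in humans. It lies on chromosome 13 from 100595957 to 100616971 on the minus strand. Its levels were 93.5 and 51.8 CPM in paw Merkel, 36.3 and 42.8 CPM in paw IFE, 83.3 and 57.5 CPM in back Merkel, and 8.5 and 26.1 CPM in back IFE libraries. Merkel libraries were the higher at both sites with no overlap. It rose in back Merkel cells (log2 fold change 2.02, SE 0.60, edgeR adjusted p = 0.0418). This call was lost without back Merkel library 1 (adjusted p = 0.152), back Merkel library 2 (adjusted p = 0.0713) or back IFE library 1 (adjusted p = 0.244), with a log2 fold change between 1.43 and 2.26 in these fits by edgeR. Over its 18 alternatives the adjusted p ran from 0.00406 to 0.244. The paw log2 fold change was 0.88 (SE 0.58, edgeR adjusted p = 0.43).

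Ocln, the gene of occludin, lies 43238 bases from Marveld2 on the same strand and passed in no comparison. It measured 20.1 and 12.9 CPM in paw Merkel, 34.0 and 63.1 CPM in paw IFE, 35.4 and 13.5 CPM in back Merkel, and 23.2 and 20.8 CPM in back IFE libraries. By FPKM, Marveld2 exceeded Ocln 10.1 and 7.17 times in paw Merkel and 1.59 and 1.46 times in paw IFE libraries. The same ratio was 7.54 and 22.3 in back Merkel and 0.694 and 3.42 in back IFE libraries, so that each Merkel library stood above each IFE library. Marveld3, the remaining member of this family, measured 29.4 and 23.9 CPM in paw Merkel and 27.5 and 25.7 CPM in paw IFE libraries, which overlapped. It measured 6.5 and 6.1 CPM in back Merkel and 11.8 and 13.4 CPM in back IFE libraries, and did not pass there (log2 fold change -0.995, SE 0.66, edgeR adjusted p = 0.338).

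Tjp1, which encodes the scaffold ZO-1 of the plaque, passed in no comparison. It measured 236 and 400.0 CPM in paw Merkel, 220.2 and 312 CPM in paw IFE, 336 and 441 CPM in back Merkel, and 166 and 248 CPM in back IFE libraries. The log2 fold change in back skin was 0.91 (SE 0.37, edgeR adjusted p = 0.127) and in the paw 0.26 (SE 0.37, edgeR adjusted p = 0.756).

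Cgn, which encodes the actin-linking protein cingulin, measured 24.1 and 28.6 CPM in paw Merkel, 16.2 and 16.1 CPM in paw IFE, 8.5 and 8.9 CPM in back Merkel, and 13.9 and 6.5 CPM in back IFE libraries. It passed nowhere (edgeR adjusted p of 0.645 in the paw and 0.87 in back skin), and neither did Tjp3, whose group means were 0.913 to 11.8 CPM.

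Among the junctional adhesion genes F11r, which encodes JAM-A, was present in all 8 libraries. It measured 50.8 and 78.7 CPM in paw Merkel, 64.7 and 53.7 CPM in paw IFE, 48.2 and 91.2 CPM in back Merkel, and 91.7 and 88.6 CPM in back IFE libraries, and Merkel and IFE values overlapped at both sites, while paw IFE lay below back IFE without overlap. Its log2 fold changes were 0.13 in the paw (SE 0.44, edgeR adjusted p = 0.911) and -0.37 in back skin (SE 0.44, edgeR adjusted p = 0.614). Jam2 and Jam3 had group means from 0.570 to 10.8 CPM and passed in no comparison. Jam2 is also known from endothelium, and the 12 endothelial markers summed to 1.1 to 1.5 CPM in paw Merkel, 5.5 to 7.2 in paw IFE, 11.4 to 17.7 in back Merkel and 4.4 to 9.6 CPM in back IFE libraries. Within this list Cdh5 was at 0 counts in 7 libraries and Tie1 in all 8, while Pecam1 measured 8.75 and 9.97 CPM in back Merkel libraries, against 0 CPM in paw Merkel and 0.420 to 2.17 CPM in IFE libraries, and Erg measured 5.40 CPM in back Merkel library 1. The part of these markers in the Jam2 values was not tested. Some 36.2% of the exonic bases of Jam3 lie opposite an antisense transcript, and since the strand setting of the counting is not given in the sources used here its counts are uncertain. Cldn22, with 100.0% of its bases opposite Wwc2, is the only other member with more than 20% shared.

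Connexins made up 3 of the 5 members that were lower in back Merkel cells. Their summed FPKM was 82.9 ± 23.3 in paw Merkel and 382 ± 42.8 in paw IFE cells, and 26.8 ± 0.477 in back Merkel and 270.3 ± 92.7 in IFE cells of the back, with no overlap at either site. Of 10 connexins tested 0 were higher and 1 lower in the paw, and 0 higher and 3 lower in back skin, with median log2 fold changes of -0.66 and -3.80. Over all genes 4.28% were called higher and 1.93% lower in the paw, and 7.99% higher and 7.45% lower in back skin. In bulk RNA of sorted cells, fewer cells of a type in the sort and less RNA per cell cannot be told apart.

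Gja1, the most widespread connexin of the epidermis (chromosome 10, 56377330 to 56402513, plus strand), had the highest FPKM of all 52 members in each of the 4 IFE libraries. It measured 164 and 62.8 CPM in paw Merkel, 708 and 957 CPM in paw IFE, 46.6 and 46.4 CPM in back Merkel, and 496 and 580.2 CPM in back IFE libraries. IFE libraries were far above Merkel libraries at both sites. It fell by 2.87 on the log2 scale in paw Merkel cells (SE 0.44, edgeR adjusted p = 0.00275) and by 3.53 in back Merkel cells (SE 0.46, edgeR adjusted p = 0.000475). Both calls held in all 18 alternatives. Its share of the connexin FPKM was lower in Merkel than in IFE libraries of the paw, without overlap, and overlapped in back skin: 44.0 ± 11.8% in paw Merkel and 71.0 ± 6.99% in paw IFE, against 67.6 ± 4.25% in back Merkel and 59.6 ± 14.3% in IFE cells of the back.

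Gjb2 and Gjb6 are neighbours on chromosome 14 (57098600 to 57104702 and 57123303 to 57133611, both on the minus strand) whose mutations cause deafness and, in humans, thickening of palm and sole skin. Gjb2 measured 58.9 and 46.7 CPM in paw Merkel, 143 and 119 CPM in paw IFE, 9.7 and 2.6 CPM in back Merkel, and 25.7 and 181 CPM in back IFE libraries 1 and 2. Gjb6 measured 10.4 and 0.830 CPM in paw Merkel, 75.6 and 58.8 CPM in paw IFE, 1.0 and 3.5 CPM in back Merkel, and 7.7 and 115 CPM in back IFE libraries 1 and 2. Within each site both were higher in IFE libraries without overlap. Across the sites, both paw Merkel libraries lay above back IFE library 1 for Gjb2, and on either side of it for Gjb6. Both genes were far higher in back IFE library 2 than in library 1. The paw IFE values lay between those of back IFE libraries 1 and 2 for both genes.

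In back Merkel cells Gjb2 fell (log2 fold change -4.06, SE 0.87, edgeR adjusted p = 0.00937) and so did Gjb6 (log2 fold change -4.78, SE 1.37, edgeR adjusted p = 0.0375). Without back IFE library 2 neither passed: the values were -2.06 for Gjb2 (edgeR adjusted p = 0.0665) and -1.78 for Gjb6 (edgeR adjusted p = 0.378). Gjb2 was also lost without back Merkel library 2 (log2 fold change -3.42, edgeR adjusted p = 0.0616), and Gjb6 without back Merkel library 1 (-4.14, adjusted p = 0.156) or library 2 (-5.95, adjusted p = 0.0843, both by edgeR). The adjusted p ran up to 0.0905 for Gjb2 and 0.378 for Gjb6 over 18 alternatives, from 2.93e-11 and 2.6e-08. In the paw the log2 fold changes were -1.31 for Gjb2 (SE 0.78, edgeR adjusted p = 0.371) and -3.56 for Gjb6 (SE 1.28, edgeR adjusted p = 0.137). The Gjb6 value in the paw was -6.35 without paw Merkel library 1, the one with more suprabasal RNA, and then passed (edgeR adjusted p = 0.0262, range over 18 alternatives 3.08e-05 to 0.373, 6 of them past the threshold).

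Gjb5, another beta connexin of keratinocytes, had group means of 0.247 to 2.60 CPM and passed in no comparison.

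Gjc1, a connexin of heart, vessels and some neurons, had group means of 17.8 CPM in paw Merkel and 17.3 CPM in paw IFE, and of 1.395 CPM in back Merkel and 14.8 CPM in back IFE cells. Its back skin log2 fold change was -3.42 (SE 1.21, edgeR adjusted p = 0.0796). Gja3, Gja6 and Gjc3 were at or below 1.87 CPM in every group mean. The delta and epsilon connexins, which include Gjd2 of neuronal gap junctions, had too few counts to be tested: 4 were looked for, and Gjd3 had 0 counts in all libraries. Panx1, a channel that releases ATP, was the only pannexin tested and measured 17.1 and 9.4 CPM in paw Merkel, 10.5 and 7.7 CPM in paw IFE, 9.4 and 0.782 CPM in back Merkel, and 17.6 and 14.01 CPM in back IFE libraries. It did not pass in the paw (log2 fold change 0.54, SE 1.08, edgeR adjusted p = 0.833) or in back skin (log2 fold change -1.63, SE 1.10, edgeR adjusted p = 0.348).

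**Figure D3:**
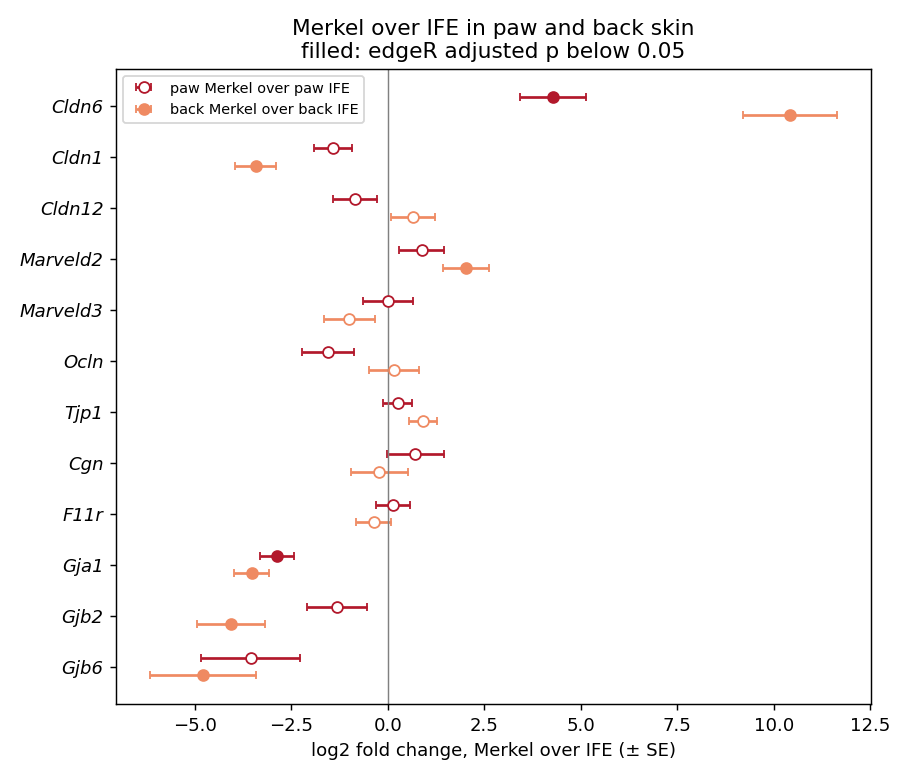
Log2 fold change of Merkel over IFE cells (horizontal axis, ± SE) for 12 junction genes in the paw and in back skin, with filled points past an edgeR adjusted p of 0.05. Cldn6 lies at 4.28 and 10.41 and Gja1 at -2.87 and -3.53, the only genes filled at both sites.

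**Figure D4:**
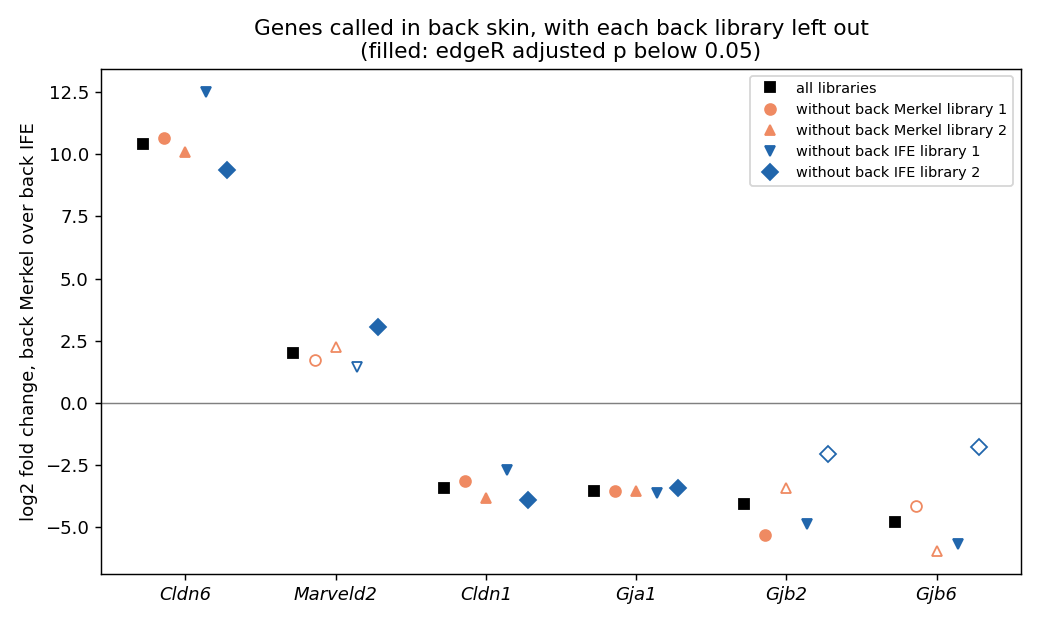
Log2 fold change of back Merkel over back IFE cells (vertical axis) for 6 of the members called there, with all libraries and with each back library left out in turn. Filled points passed an edgeR adjusted p of 0.05. Cldn6, Cldn1 and Gja1 stay filled throughout, while Gjb2 and Gjb6 shrink to -2.06 and -1.78 without back IFE library 2.

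The mean of the paw and back differences uses all 8 libraries and was tested as 1 contrast, chosen after the data were seen. By it 2 of the 30 tested members were higher in Merkel cells and 6 lower, where 12.5% of all genes tested were called higher and 11.3% lower. The higher ones were Cldn6 (log2 fold change 7.35, SE 0.74, edgeR adjusted p = 4.51e-05) and Marveld2 (1.45, SE 0.41, edgeR adjusted p = 0.0263). The lower ones included Gja1 (-3.20, SE 0.32, edgeR adjusted p = 4.03e-05), Cldn1 (-2.42, SE 0.36, edgeR adjusted p = 0.000689), Gjb2 (-2.69, SE 0.58, edgeR adjusted p = 0.00638), Gjb6 (-4.17, SE 0.94, edgeR adjusted p = 0.00818) and Cldn8 (edgeR adjusted p = 0.0479). No fitted size is given for Cldn8, since it had 0 counts in back Merkel libraries. The 7 members called in back skin are all among these 8.

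Between the sites no tested member passed in the main edgeR fit, to which the 0 calls below refer. With no filter on low counts, edgeR called 3 members between Merkel cells, among them Gjb2 and Gja1 (edgeR adjusted p = 4.7e-06 and 0.0322). The unfiltered fit also called Cldn6 between IFE cells (edgeR adjusted p = 1.16e-05), and Cldn6 and Gjb2 for the contrast of the site differences. Paw against back Merkel cells gave 0 calls among the members where 0.178% of all genes were called higher and 0.0066% lower, 0.185% in all, with 7 members at an unadjusted p under 0.05, 3 called by DESeq2 and 0 by limma-trend. The lowest adjusted p among the 12 members shown by library was that of Gjb2, 52.8 ± 8.60 CPM in paw Merkel and 6.15 ± 4.97 CPM in back Merkel cells (log2 fold change 3.09, SE 0.84, edgeR adjusted p = 0.214, and DESeq2 adjusted p = 0.0048 within a range of 4.7e-06 to 0.693 over 17 alternatives). Paw Merkel cells also had more Marveld3 than back Merkel cells by value, 26.6 ± 3.89 against 6.3 ± 0.342 CPM (log2 fold change 2.08, SE 0.68, edgeR adjusted p = 0.312). Paw against back IFE cells gave 0 calls by edgeR for the members and for all genes (0%), with 2 members at an unadjusted p under 0.05, 1 called by DESeq2 and 0 by limma-trend. The contrast of the site differences likewise gave 0 (0% of all genes), with 4 members at an unadjusted p under 0.05, 1 called by DESeq2 and 0 by limma-trend.

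The stretches just upstream of the transcription starts of Cldn6, Marveld2, Cldn1 and Gja1 are printed to set the 2 genes that were higher in Merkel cells beside the main claudin and the main connexin of the IFE cells. Sequences are from RefSeq (GRCm38.p6), 5′ to 3′ on the strand of the gene, ending at the base before the first start annotated by RefSeq or GENCODE. Capitals mark matches on either strand to CAGCTG or CAGATG (E-boxes, the kind of site that factors such as Atoh1 bind), AACNNGTT (Grainyhead-like factors), GGGCGG (the GC box) and TATAAA (the TATA box).
Cldn6, chr17:23679115-23679248, plus strand: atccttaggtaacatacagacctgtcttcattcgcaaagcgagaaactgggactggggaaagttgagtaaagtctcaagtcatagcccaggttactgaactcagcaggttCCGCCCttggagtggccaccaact
Marveld2, chr13:100616972-100617221, minus strand: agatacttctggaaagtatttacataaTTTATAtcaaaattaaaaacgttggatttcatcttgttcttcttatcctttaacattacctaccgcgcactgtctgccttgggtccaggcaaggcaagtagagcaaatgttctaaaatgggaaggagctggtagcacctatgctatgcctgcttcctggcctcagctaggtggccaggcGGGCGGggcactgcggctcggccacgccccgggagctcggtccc
Cldn1, chr16:26371842-26372089, minus strand: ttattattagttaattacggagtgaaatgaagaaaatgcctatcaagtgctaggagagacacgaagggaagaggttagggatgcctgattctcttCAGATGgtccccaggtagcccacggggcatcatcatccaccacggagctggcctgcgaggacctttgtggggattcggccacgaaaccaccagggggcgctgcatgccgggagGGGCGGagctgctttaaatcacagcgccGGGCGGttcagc
Gja1, chr10:56377050-56377299, plus strand: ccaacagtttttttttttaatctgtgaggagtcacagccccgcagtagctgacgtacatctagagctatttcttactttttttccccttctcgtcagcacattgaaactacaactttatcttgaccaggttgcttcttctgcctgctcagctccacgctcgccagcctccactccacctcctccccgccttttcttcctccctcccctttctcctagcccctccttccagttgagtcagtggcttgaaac
Over the 250 bases before each of 32851 RefSeq starts, 13% held CAGCTG, 14.4% CAGATG, 3.6% AACNNGTT, 32.7% GGGCGG and 12.4% TATAAA. Of 52 member starts, from the 37 genes that matched the table, 6 held CAGCTG, 3 CAGATG, 4 AACNNGTT, 23 GGGCGG and 7 TATAAA. In the full window of 250 bases the GC box stood 2 times upstream of Cldn6, 1 time upstream of Marveld2, 2 times upstream of Cldn1 and Gjb2, and 0 times upstream of Gja1 and Gjb6. These letters are a description of the windows.

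Of 34 further tight junction and polarity genes 30 were tested, and 4 were called in the paw and 6 in back skin, where 6.21% and 15.4% of all genes were called. In the paw 1 was higher (Arhgef2) and 3 lower (Marveld1, Prkci and Ybx3), and in back skin 2 were higher (Ildr1 and Amot) and 4 lower (Marveld1, Magi1, Pard6g and Ybx3), with medians of -0.22 and -0.03. Ildr1 encodes an angulin that brings tricellulin to cell corners and measured 9.6 and 11.2 CPM in paw Merkel, 2.0 and 3.2 CPM in paw IFE, 10.95 and 11.2 CPM in back Merkel, and 0 and 0.382 CPM in back IFE libraries. Like Marveld2 it was higher in each Merkel library than in each IFE library, and it passed in back skin (log2 fold change 5.76, SE 1.61, edgeR adjusted p = 0.0335) but not in the paw (2.01, SE 1.35, edgeR adjusted p = 0.438). Its relative Lsr gave 1.33 in the paw (SE 0.49, edgeR adjusted p = 0.149) and 1.06 in back skin (SE 0.49, edgeR adjusted p = 0.171), and did not pass. Amot, which encodes the polarity and Hippo pathway protein angiomotin, averaged 370.1 CPM in back Merkel and 4.19 CPM in back IFE cells, and rose there (6.44 on the log2 scale, SE 1.18, edgeR adjusted p = 0.00409), and did not pass in the paw (3.85, SE 1.05, edgeR adjusted p = 0.0538). Marveld1, another MARVEL protein gene, averaged 14.5 CPM in paw Merkel and 61.5 CPM in paw IFE cells, and 6.35 CPM in back Merkel and 61.9 CPM in back IFE cells (log2 fold changes -2.08 and -3.28, SE 0.55 and 0.58, edgeR adjusted p = 0.0482 and 0.0033).

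Of the 6 genes of EpCAM and the matriptase axis, which regulate claudins at the cell surface, 1 was lower at each site and 0 higher, with medians of -0.05 and -0.11. Epcam itself entered the sort of both cell types and is not a finding. Of 10 tested transcription factors known to act on junction genes, 2 were higher and 2 lower in the paw and 0 higher and 3 lower in back skin, with medians of -0.70 and 0.05, beside 4.28% of all genes called higher and 1.93% lower in the paw and 7.99% and 7.45% in back skin. Grhl2, an activator of claudin genes in epithelia, averaged 59.1 CPM in paw Merkel and 234 CPM in paw IFE cells, and 17.1 CPM in back Merkel and 146 CPM in back IFE cells (log2 fold changes -1.99 and -3.10, SE 0.36 and 0.38, edgeR adjusted p = 0.00709 and 0.000309). Zeb1, a repressor of epithelial genes, was higher in the paw (26.2 and 224 CPM in paw Merkel and 0.733 and 0.197 CPM in paw IFE libraries, log2 fold change 8.02, SE 1.36, edgeR adjusted p = 0.00475). In back skin Zeb1 measured 76.1 and 74.1 CPM in Merkel and 18.3 and 2.33 CPM in IFE libraries, in the same direction without overlap, and did not pass (log2 fold change 2.87, SE 1.05, edgeR adjusted p = 0.0892). The others called were Klf4, higher in the paw, Trp63, lower at both sites, and Snai2, lower in back skin. Of 8 tested large-pore channel genes of the Lrrc8 and Calhm families 0 passed at either site, with medians of -0.06 and 0.19.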

How the data were processed

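RNA of sorted Merkel and IFE cells was sequenced in 8 libraries. The authors deposited whole-number read counts per gene and FPKM values for each library. Per the submitters' processing notes the tools included TopHat2 2.0.13, Cufflinks 2.2.1, Subread 1.4.6 with featureCounts and DESeq2 1.6.3, with genome mm10; the annotation and strand setting are not given in the sources used here. From the counts, genes with enough reads were kept with filterByExpr, scaled by TMM and tested with edgeR 4.0.16 (R 4.3.3) by its quasi-likelihood F test, with 1 mean per group over all 8 libraries (4 residual degrees of freedom) and Benjamini-Hochberg adjustment over 15151 genes at a threshold of 0.05. Library totals of 11139306 to 26195076 counts, and 2 libraries per group, set the precision. DESeq2 1.42.0, limma 3.58.1, other filters, FPKM with pseudocounts of 1 and 0.1, a replicate block and leaving out each library were tried. On data simulated for the paw comparison over 15151 genes, 53 of 100 genes changed 8-fold and 2 of 100 changed 2-fold were recovered, with 3 false calls. The changed genes were drawn only from those above a minimum mean level, and fewer were changed than were called in the data. Some tested members lie below that level, so these rates do not carry over to them. Members were given in full if they passed in any comparison or averaged at least 20 CPM in a group. Some genes, members among them, are not reported here by name, though counts and sums include them. The members and lists were chosen with earlier results of these data known. Gene positions are from GENCODE on GRCm38.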

Additional observations from a re-analysis of the deposited data

How the results depend on the processing

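Of the log2 fold changes of the 14 members that passed in any comparison or averaged at least 20 CPM in a group, 1145 alternative values kept their direction and side of the threshold, 38 came past it, 21 no longer passed it and 0 reversed. In the paw, calls over all genes were 941, against 2142 by DESeq2, 1920 with no filter on low counts, 537 with only the 2 groups compared in the fit, 441 with limma on log2(FPKM + 1) without a filter and 3617 for the mean of the site differences; leaving out a library gave 561 to 2369. The 2 member calls there became 5 by DESeq2, 5 with no filter and 8 for the mean of the sites, and 1 to 3 without a library. In back skin, 2338 calls became 3902 by DESeq2 and 3617 for the mean, 1307 to 3376 without a library, where member calls were 4 to 8. For paw against back Merkel cells, 28 calls became 493 by DESeq2, 452 with no filter, 5 with only the 2 groups, 7 and 13 on FPKM with pseudocounts of 1 and 0.1, and 1 to 177 without a library; the 0 member calls became 3 by DESeq2, 3 with no filter and 0 to 1 without a library. For paw against back IFE cells (643 genes at an unadjusted p under 0.05), 0 edgeR calls became 81 by DESeq2, 120 with no filter, 1 with the replicate block, 1 on FPKM with either pseudocount, 8 on FPKM without a filter, and 0 to 67 without a library; members gave 1 by DESeq2 and 1 with no filter. For the contrast between the sites (1365 genes at an unadjusted p under 0.05), 0 edgeR calls became 1 with RLE size factors, 248 by DESeq2, 305 with no filter, 4 with the replicate block, 2 on log2(FPKM + 1), and 0 to 41 without a library; members gave 1 by DESeq2 and 2 with no filter. The cause of these differences was not tested. With the replicate number as a block, 1144 genes and 2 members were called in the paw, 2520 genes and 9 members in back skin, and 41 genes and 0 members between Merkel cells. Same-numbered libraries did not deviate together (correlations of -0.0427 to 0.0845). This check cannot exclude that the numbers pair the samples, since spread between amplified libraries could hide shared animals and the labels do not name them. The fit with only the 2 groups compared could not be applied to the contrast between the sites. With 2 libraries a group, modest differences were seldom detectable.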
